A study of Mus musculus with 8 samples.

Results

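AP-1 is a transcription factor built as a pair of basic leucine zipper proteins, and the genes described here are its subunits together with 3 immediate early genes that are usually measured beside them. The 10 genes, out of 55335 gene identifiers in the expression table, were taken by name: the Jun family (Jun, Junb, Jund), the Fos family (Fos, Fosb, Fosl1, Fosl2), and Atf3, Egr1 and Zfp36. MC3T3-E1 cells, an established pre-osteoblast line from mouse calvaria, had been kept for 3 days on TABS (n = 4 libraries), the submitters' Trio-Active bone scaffold, or on HA (n = 4), hydroxyapatite doped with magnesium. The sources do not say what TABS consists of, and every culture had a scaffold, so each difference is between TABS and HA and not from cells without one. The labels do not say whether the libraries of a group came from separate cultures. The p-values therefore measure how far these libraries spread, and that spread may be technical.

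Jun proteins can pair with each other or with Fos proteins, whereas Fos proteins need a Jun partner, and the pairs bind the sequence TGACTCA in promoters and enhancers. Fos, Fosb, Egr1 and Zfp36 are switched on within minutes of a growth factor or mechanical stimulus and their mRNAs decay quickly, while Jund, Fosl1 and Fosl2 can stay on for longer. In bone, Fos-related proteins and the Jun proteins act in osteoblast growth and differentiation, and extra Fosl1 or the short form of Fosb in transgenic mice increases bone mass. Zfp36 encodes tristetraprolin, which binds AU-rich elements in 3′ UTRs and speeds the decay of the mRNAs that carry them, some immediate early mRNAs among them.

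RNA levels are given as FPKM (fragments counted per kilobase of transcript and adjusted for library size), which allows levels of different genes to be set side by side. Between 11187 and 11357 genes reached 1 FPKM in each library. The read depth is unknown, and in bulk RNA fewer cells of a kind and less RNA per cell cannot be told apart. All 8 markers of the osteoblast lineage reached 1 FPKM in at least 4 libraries, but Alpl did so only in HA. Alpl was at 0.373 to 0.518 FPKM in TABS and 1.13 to 1.80 FPKM in HA. The summed level of the 8 was 1864 to 2000 FPKM in TABS and 2187 to 2710 FPKM in HA. Of the 8, 5 were lower in TABS (limma adjusted p under 0.05), Alpl among them, against 2.9% of all tested genes. One of these calls, Col1a1, was lost without any 1 TABS library or without HA 2 (limma adjusted p = 0.0559 to 0.0743). Alpl entered the test only through its HA values, so its call adds no support to this count. The calls of this list other than Col1a1 and Alpl were kept under every alternative setting. The median log2 fold change of the list was -0.39. Of the markers of other cell types, all 4 for endothelium and all 4 for myoblasts stayed below 1 FPKM in every library, with Kdr, Myf5, Myod1 and Myog listed at 0. Likewise 4 of 5 for macrophages, 3 of 4 for adipocytes and 2 of 4 for chondrocytes stayed below 1 FPKM in every library. The summed macrophage markers, carried by Lyz2, reached 11.2 to 16.3 FPKM in TABS and 17.9 to 20.1 FPKM in HA, and the summed chondrocyte markers, carried by Sox9, 41.0 to 44.0 FPKM in TABS and 37.5 to 42.0 FPKM in HA. Lyz2 was lower in TABS (log2 fold change -0.46, limma adjusted p = 0.0293), a call lost without any 1 library other than TABS 1 and TABS 4 (0.0526 to 0.0701). The cartilage collagen Col2a1, at 5.49 ± 0.212 FPKM in TABS and 4.32 ± 0.523 FPKM in HA (SD, n = 4 each), was higher (0.29, limma adjusted p = 0.0393), a call lost without any 1 library other than HA 2 (0.0547 to 0.102). The part of these shifts in the results that follow was not tested.

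At the mRNA level, AP-1 in these cells was mainly Jun, Jund and Fosl2, with Junb and Fosl1 below them and very little Fos or Fosb. In TABS libraries Jun and Fosl1 were higher, by 1.58 and 1.51 times in the ratio of mean FPKM, and Zfp36 was lower, at 0.763 times its HA level. The other tested members, Jund, Junb, Fosl2 and Egr1, did not pass the test. Of the 10 members, 7 reached 1 FPKM in at least 4 libraries and were tested, and among these 2 were higher and 1 was lower in TABS (limma on log2(FPKM + 1), Benjamini-Hochberg adjusted p under 0.05 over all 11280 genes tested). Over all tested genes, 506 (4.49%) were higher and 327 (2.9%) were lower in TABS, and their median log2 fold change was 0.01. After rescaling to TPM these became 915 higher and 239 lower, so the share of higher genes among all calls was 79.3% with TPM and 60.7% with FPKM as deposited. With FPKM as deposited, 1494 of the 11280 tested genes were higher and 1222 lower at an unadjusted limma p under 0.05. In 2 of the 7 tested members all TABS libraries lay above all HA libraries, and in 3 all lay below, against 10.8% and 7.15% of all tested genes. Fos, Fosb and Atf3 stayed under the filter.

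**Figure D1:**
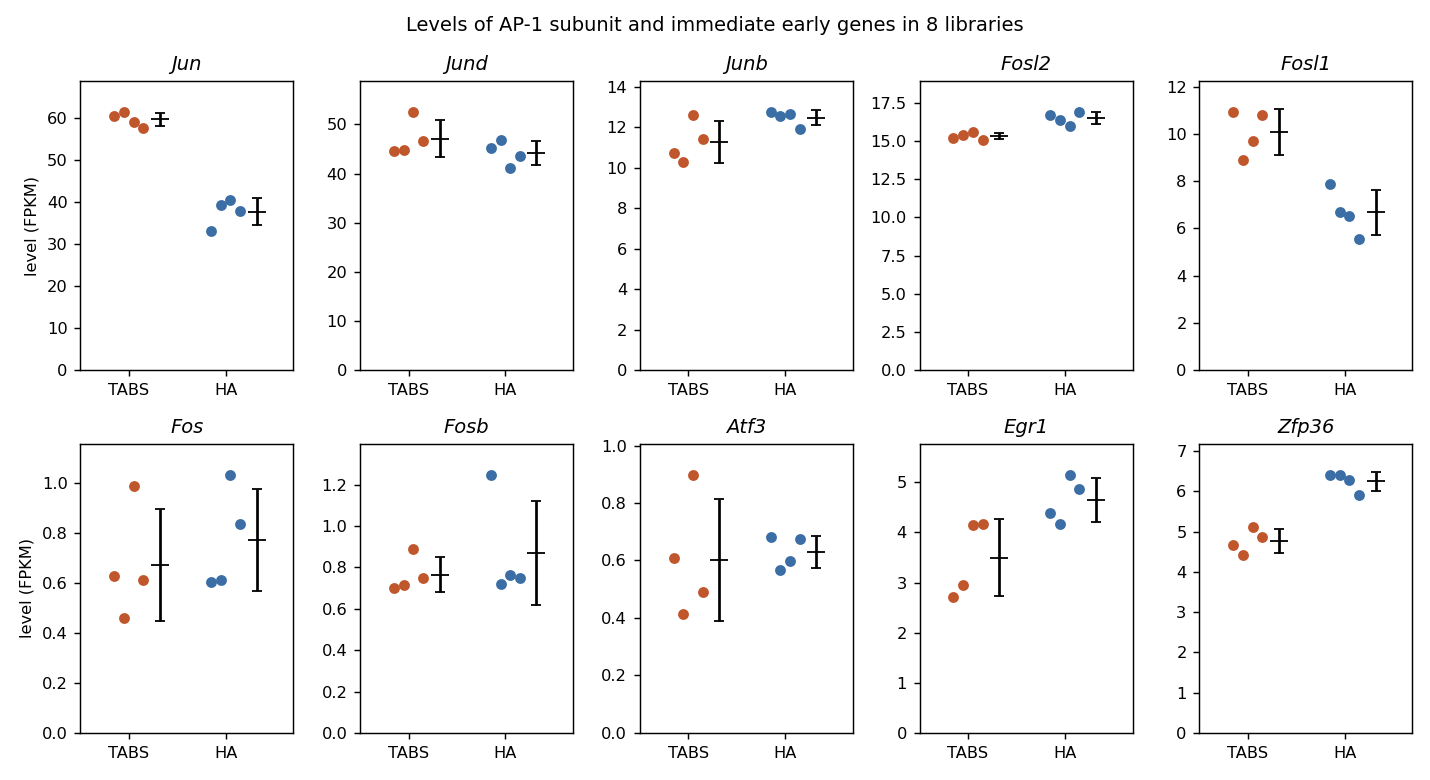
Level of each of the 10 genes in FPKM (vertical axes from 0, a separate scale for each gene) in the 4 TABS libraries (orange, left) and the 4 HA libraries (blue, right). Points are libraries in the order of their replicate numbers and bars give the mean ± SD. The groups are apart for Jun, Fosl1, Zfp36 and Fosl2, which did not pass the test, and nearly touch for Egr1. They overlap for Jund and Junb, and for Fos, Fosb and Atf3, which lie near or below 1 FPKM.

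The Jun family carried most of the AP-1 mRNA. Jun encodes c-Jun, the subunit with the strongest activation domain of its family, whose activity is raised by phosphorylation by JNK. It is a gene of 1 exon on the minus strand at chr4:95049034-95052222 of GRCm38. Jun was measured at 60.4, 61.4, 59.1 and 57.6 FPKM in TABS libraries 1 to 4, against 33.1, 39.3, 40.4 and 37.8 FPKM in HA libraries 1 to 4. Every TABS library was above every HA library, with 17.2 FPKM between the lowest TABS value and the highest HA value. The means were 59.6 ± 1.63 FPKM in TABS and 37.6 ± 3.23 FPKM in HA (SD, n = 4 each), a log2 fold change of 0.65 ± 0.06 (SE, limma adjusted p = 0.000718). By size of the log2 fold change Jun stood at rank 50 among the 833 genes called.

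Jun is known to act on its own promoter through an AP-1-like site at which Jun and Atf2 bind as a pair. The promoter is shown because it belongs to the member with the largest difference. It is given as the 250 bases before the transcription start (RefSeq, GRCm38.p6, chr4:95052223-95052472, minus strand, written 5′ to 3′), with the octamer TGACATCA in capitals.
Jun: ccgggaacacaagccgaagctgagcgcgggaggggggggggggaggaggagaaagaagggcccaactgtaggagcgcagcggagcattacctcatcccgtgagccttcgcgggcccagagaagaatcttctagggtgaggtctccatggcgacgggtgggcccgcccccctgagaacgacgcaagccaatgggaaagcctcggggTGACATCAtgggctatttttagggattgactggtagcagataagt
The octamer TGACATCA starts 45 bases before the transcription start. AP-1-like sequences other than the motifs searched are not marked. Searched on both strands, it was found in 3.62% of 32851 promoter windows of 300 bases (250 before the start and 50 after it). The canonical AP-1 motif TGACTCA was not in this window, nor in the windows of the other 7 members in the promoter table, and was found in 5.20% of all windows.

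Jund encodes the subunit that is usually present at a steady level in resting cells and that slows growth in fibroblasts. It lies at chr8:70698949-70700616, plus strand, also as 1 exon. Jund was measured at 44.5, 44.8, 52.5 and 46.7 FPKM in the TABS libraries, against 45.2, 46.8, 41.2 and 43.6 FPKM in the HA libraries. The groups overlapped, with TABS 3 highest and HA 3 lowest. Means were 47.1 ± 3.74 FPKM in TABS and 44.2 ± 2.40 FPKM in HA (SD, n = 4 each), with a log2 fold change of 0.09 ± 0.06 (SE) that did not pass the test (limma adjusted p = 0.422).

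Junb, a weaker activator that restrains Jun in several settings and is needed for bone formation in mice, lies at chr8:84974484-84978718, minus strand. It was measured at 10.8, 10.3, 12.6 and 11.4 FPKM in TABS, against 12.8, 12.5, 12.7 and 11.9 FPKM in HA. TABS 3 lay within the HA range and the other 3 TABS libraries below it. The log2 fold change of -0.14 ± 0.06 (SE) did not pass the test (limma adjusted p = 0.200), with means of 11.3 ± 1.02 FPKM in TABS and 12.5 ± 0.371 FPKM in HA (SD, n = 4 each).

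The order of Jun and Jund differed between the groups. Jun was the highest of the 10 genes in all 4 TABS libraries and Jund the highest in all 4 HA libraries, and within either group the ranges of these 2 genes did not overlap. The Jun to Jund ratio was 1.27 ± 0.115 in TABS and 0.855 ± 0.103 in HA (SD, n = 4 each), and the Jun to Junb ratio was 5.33 ± 0.577 in TABS and 3.02 ± 0.286 in HA. These ratios, like the shares that follow, are descriptions with no test. A scaling factor of a library leaves the ratio of 2 genes in it as it was.

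Jun made up 52.2%, 52.7%, 47.6% and 49.8% of the summed FPKM of the Jun family in TABS libraries 1 to 4, against 36.3%, 39.8%, 42.9% and 40.5% in HA libraries 1 to 4. All TABS values lay above all HA values, with means of 50.6% ± 2.38 in TABS and 39.9% ± 2.70 in HA (SD, n = 4 each). Jund had the complementary place, with 39.9% ± 1.82 in TABS and 46.9% ± 2.47 in HA. Junb took 9.54% ± 0.596 in TABS and 13.2% ± 0.610 in HA, and for both Jund and Junb every TABS share was below every HA share. The shares of a family sum to a fixed total, so a higher share of Jun lowers the shares of the others without any change in their own level. The family sum was 118 ± 4.20 FPKM in TABS and 94.3 ± 3.20 FPKM in HA, without overlap.

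**Figure D2:**
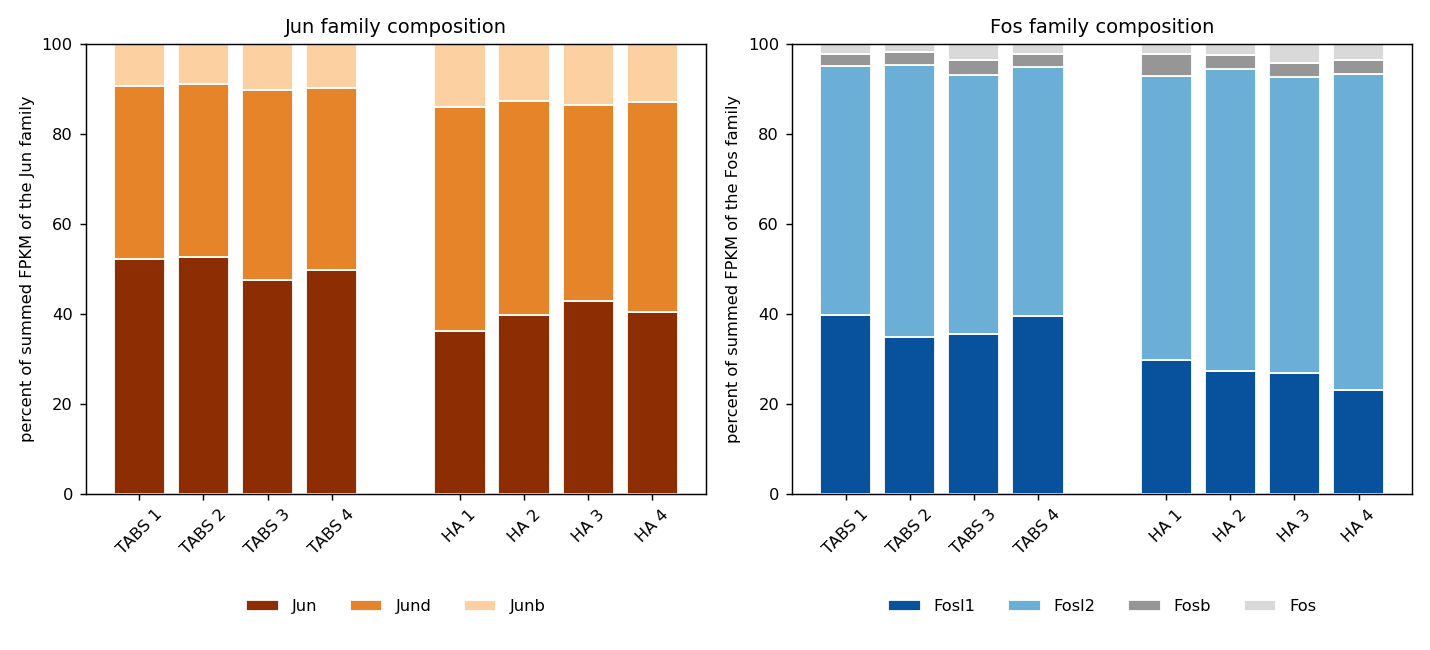
Percent of the summed FPKM of the Jun family (left) and of the Fos family (right) contributed by each subunit gene in each library, with TABS libraries 1 to 4 left of HA libraries 1 to 4. The Jun segment covers 47.6% to 52.7% in TABS and 36.3% to 42.9% in HA; the Fosl1 segment covers 34.9% to 39.8% in TABS and 23.1% to 29.8% in HA.

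In the Fos family, Fosl1 was the member that differed. Fosl1 encodes Fra-1, which lacks the strong activation domain of c-Fos, is itself induced by AP-1, and supports bone matrix production in mice. The gene lies at chr19:5447547-5455946, plus strand. Fosl1 was measured at 10.9, 8.91, 9.69 and 10.8 FPKM in TABS libraries 1 to 4, against 7.89, 6.71, 6.54 and 5.56 FPKM in HA libraries 1 to 4. Every TABS library was above every HA library, the nearest being TABS 2 and HA 1. The means were 10.1 ± 0.961 FPKM in TABS and 6.67 ± 0.955 FPKM in HA (SD, n = 4 each), with a log2 fold change of 0.53 ± 0.10 (SE, limma adjusted p = 0.0122) and rank 80 among the 833 called genes.

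Of the 2033 exon bases of Fosl1, 1163 overlap Ccdc85b on the opposite strand. The strand setting of the counting is not stated, so reads from the overlap may belong to either gene. The part of this in the level, shares and ratio of Fosl1 was not tested. Ccdc85b itself averaged 11.7 ± 1.04 FPKM in TABS and 10.3 ± 0.788 FPKM in HA (SD, n = 4 each), with a log2 fold change of 0.16 that did not pass the test (limma adjusted p = 0.194) and groups that overlapped. Jund overlaps the gene model Gm11175 (877 of 1668 bases, at 1.04 ± 0.333 FPKM in TABS and 0.874 ± 0.191 FPKM in HA), and the other overlaps were shorter. The antisense gene Junos covers 232 of 3189 bases of Jun and was at 1.05 ± 0.0814 FPKM in TABS and 0.772 ± 0.0421 FPKM in HA, with every TABS library above every HA library. Prdx2 overlaps Junb in 173 of 2301 bases and Gm44710 overlaps Zfp36 in 125 of 3470 bases, and neither passed the test (limma adjusted p = 0.638 and 0.415).

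Fosl2 encodes Fra-2, which promotes osteoblast differentiation and collagen production, and was the most abundant Fos family gene in all 8 libraries. At chr5:32135801-32157842, plus strand, it was measured at 15.2, 15.4, 15.6 and 15.1 FPKM in TABS, against 16.7, 16.4, 16.0 and 16.9 FPKM in HA. All TABS values were below all HA values, but the difference was small, with 0.438 FPKM between the nearest values. Means were 15.3 ± 0.214 FPKM in TABS and 16.5 ± 0.393 FPKM in HA (SD, n = 4 each), with a log2 fold change of -0.10 ± 0.04 (SE) that did not pass the test (limma adjusted p = 0.127). It passed with a correction for GC content and transcript length, at -0.17 (limma adjusted p = 0.0107).

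Fos and Fosb, whose proteins are the strong activators of the family, were near or below the 1 FPKM at which genes entered the test. Fos (chr12:85473890-85477273, plus strand) was at 0.629, 0.459, 0.991 and 0.614 FPKM in TABS, against 0.606, 0.614, 1.03 and 0.837 FPKM in HA. Fosb (chr7:19302696-19310051, minus strand) was at 0.702, 0.717, 0.887 and 0.751 FPKM in TABS, against 1.25, 0.719, 0.763 and 0.751 FPKM in HA. For both genes the groups overlapped, and the mean of log2(FPKM + 1) in TABS was lower by 0.09 for Fos and by 0.08 for Fosb. For Fosb the sign rested on HA 1, without which the difference was 0.015. In a fit without the filter on low values neither passed the test (limma adjusted p = 0.774 for Fos and 0.753 for Fosb).

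Fosl1 made up 39.8%, 34.9%, 35.7% and 39.7% of the summed FPKM of the Fos family in TABS libraries 1 to 4, against 29.8%, 27.5%, 26.9% and 23.1% in HA libraries 1 to 4. The groups did not overlap, with 37.5% ± 2.56 in TABS and 26.8% ± 2.77 in HA (SD, n = 4 each). Fosl2 held the largest share in either group, at 57.1% ± 2.40 in TABS and 66.6% ± 2.95 in HA, again without overlap. Fos contributed 2.50% ± 0.800 in TABS and 3.13% ± 0.906 in HA, and Fosb 2.85% ± 0.302 in TABS and 3.48% ± 0.830 in HA. For these 2 genes the groups overlapped. Fosl1 and Fosl2 together made up 94.7% ± 1.06 of the family in TABS and 93.4% ± 0.834 in HA, so the balance between them differed while their joint share overlapped between groups. The Fosl1 to Fosl2 ratio was 0.659 ± 0.0701 in TABS and 0.405 ± 0.0586 in HA.

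The family sum of Fos was 26.8 ± 0.902 FPKM in TABS and 24.8 ± 1.11 FPKM in HA, with overlap between HA 1 and TABS 2. Jun family mRNA was 4.40 ± 0.200 times Fos family mRNA in TABS and 3.81 ± 0.257 times in HA (SD, n = 4 each), and all TABS ratios were above all HA ratios. Over the 7 subunit genes together, Jun held 41.2% ± 1.88 in TABS and 31.6% ± 2.48 in HA, and Jund 32.5% ± 1.60 in TABS and 37.1% ± 1.68 in HA. Fosl2 held 10.6% ± 0.240 in TABS and 13.9% ± 0.538 in HA, and Fosl1 6.97% ± 0.730 in TABS and 5.60% ± 0.819 in HA. Jun shares lay apart, with TABS above HA, and those of Jund and Fosl2 lay apart with TABS below, while those of Fosl1 overlapped. These are shares of mRNA, and the amounts of protein or of dimers were not measured.

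Fos is known for a cAMP response element close to its start, at which Creb1 binds. The stretch that holds it is shown as the contrast to Jun, since the 2 genes carry related sites and differ widely in level (RefSeq, GRCm38.p6, chr12:85473797-85473856, plus strand, 93 to 34 bases before the start, with the core TGACGT in capitals).
Fos: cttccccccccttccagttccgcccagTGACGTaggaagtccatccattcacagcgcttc
The core TGACGT starts 66 bases before the start and was found on either strand in 7.51% of the 32851 windows. It is part of the longer motif TGACGTCA, which was in 1.79% of the windows and in none of the 8 member windows. Atf3 held TGACGT 8 bases before its start and Zfp36 a CArG box, the binding sequence of the serum response factor, 58 bases before its start. CArG boxes were in 1.63% of all windows. Fosl1 and Egr1 had no promoter window, and sequence further than 250 bases before the start was not searched for any member. None of the motifs searched was in the windows of Fosb, Fosl2, Junb or Jund. The RefSeq start that sets the window is the gene start in GENCODE for Jun and Fos, and differs from it for the other 6. Among tested genes with a promoter window, 380 of 8284 (4.59%) were higher and 239 (2.89%) lower in TABS. Of the 359 with TGACTCA, 27 (7.52%) were higher and 17 (4.74%) lower, and their median log2 fold change was 0.03 against 0.01 for all genes with a window. Of the 299 with TGACGTCA, 7 (2.34%) were higher and 7 lower. Without 1 library, those with TGACTCA gave 13 to 23 higher and 7 to 12 lower, and those with TGACGTCA 3 to 5 higher and 2 to 7 lower. Calls over all tested genes fell too, from 506 to between 247 and 429 higher, and from 327 to between 168 and 289 lower.

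Atf3 encodes a stress-induced factor that pairs with Jun proteins and often represses. At chr1:191170296-191218039, minus strand, it was measured at 0.609, 0.413, 0.898 and 0.491 FPKM in TABS, against 0.681, 0.568, 0.597 and 0.675 FPKM in HA. The HA range lay inside the TABS range, and without the filter the gene did not pass the test (limma adjusted p = 0.897). Its difference of -0.03 became 0.024 without TABS 2. Fos, Fosb and Atf3 could not all be put in order, because the ranges of all 3 overlapped in TABS. In HA, Fos overlapped both of the others. There every Fosb value (at least 0.719 FPKM) was above every Atf3 value (at most 0.681 FPKM).

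Egr1, a zinc finger transcription factor and a classic readout of ERK signalling, was low. The gene (chr18:34859823-34864984, plus strand) was measured at 2.72, 2.95, 4.14 and 4.16 FPKM in TABS, against 4.40, 4.17, 5.15 and 4.86 FPKM in HA. Its groups did not overlap but nearly met, at 4.16 FPKM in TABS 4 and 4.17 FPKM in HA 2, and TABS 3 and 4 were well above TABS 1 and 2. The means of 3.49 ± 0.768 FPKM in TABS and 4.64 ± 0.443 FPKM in HA (SD, n = 4 each) gave a log2 fold change of -0.34 ± 0.12 (SE) that did not pass the test (limma adjusted p = 0.112). Its corepressors Nab1 and Nab2 did not pass it either, with log2 fold changes of -0.18 (limma adjusted p = 0.0933) and 0.11 (limma adjusted p = 0.308).

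Zfp36 was the member that was lower in TABS. The gene lies at chr7:28376784-28380253, minus strand. It was measured at 4.66, 4.42, 5.12 and 4.86 FPKM in TABS libraries 1 to 4, against 6.40, 6.41, 6.27 and 5.90 FPKM in HA libraries 1 to 4. No HA library was as low as any TABS library. With 4.77 ± 0.297 FPKM in TABS and 6.25 ± 0.241 FPKM in HA (SD, n = 4 each), the log2 fold change was -0.33 ± 0.05 (SE, limma adjusted p = 0.00575), at rank 279 among the 833 called genes.

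Tristetraprolin binds the sequence UAUUUAU, written TATTTAT in DNA letters, and the 3′ UTRs of 8 members carry it. One site of each is shown because the protein of Zfp36, itself a member, is known to bind this sequence. Given are 29 bases of the 3′ UTR from GENCODE M21 transcripts of GRCm38, in the direction of the mRNA, with the site in capitals.
Fos: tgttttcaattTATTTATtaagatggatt
Fosb: ccacccccagcTATTTATccctttcctgg
Fosl1: agggcagctgcTATTTATtttcctaaaga
Fosl2: aggcacttttcTATTTATcctcttttaag
Jun: ttgcttgtgcaTATTTATaatagcgttcg
Jund: cgattccgcccTATTTATgtttctactcg
Atf3: aaaatattactTATTTATcccagtattcc
Zfp36: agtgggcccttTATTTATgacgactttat
Fosl2 and Zfp36 have 3 such sites and Fos has 2, while Fosb, Fosl1, Jun, Jund and Atf3 have 1 each. The annotated 3′ UTRs of Junb and Egr1 have 0. Members with a site included both that were higher in TABS, Jun and Fosl1, and the one that was lower, Zfp36. At least 1 TATTTAT was found in 3057 of 10120 tested genes with a 3′ UTR (30.2%). Of these, 169 (5.53%) were higher and 101 (3.30%) lower in TABS, against 4.86% and 2.93% of all tested genes with a 3′ UTR, and their median log2 fold change was 0.00. Genes with a site have longer 3′ UTRs, with a median of 2176 bases, against 906 bases in genes without one, and the part of length in these shares was not tested. A match is a description of the sequence and does not show binding.

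The paralogs of tristetraprolin and other binders of AU-rich elements gave 1 higher and 0 lower among 5 tested genes (2 higher and 1 lower at an unadjusted limma p under 0.05), with a median log2 fold change of 0.07. Of all tested genes, 4.49% were called higher and 2.9% lower, and 1494 and 1222 of 11280 had an unadjusted limma p under 0.05. Zfp36l2, a paralog that also promotes decay, was at 77.2 ± 2.69 FPKM in TABS and 67.8 ± 3.18 FPKM in HA (SD, n = 4 each), a log2 fold change of 0.18 (limma adjusted p = 0.0460). That call was lost without any 1 of 7 libraries (limma adjusted p = 0.0637 to 0.121) and kept only without HA 3. The paralog Zfp36l1 had -0.14 (limma adjusted p = 0.0971) and the stabilising binder Elavl1 0.13 (limma adjusted p = 0.172). Of 10 known targets of tristetraprolin, 7 were too low to be tested and 0 of the other 3 passed in limma, with 1 at an unadjusted p under 0.05. Ccl2, a chemokine, had a log2 fold change of 0.37 with every TABS library above every HA library (limma adjusted p = 0.0764). It passed after rescaling to TPM (0.0496) and with the GC and length correction (0.0260). Ptgs2, the inducible cyclooxygenase, had -0.08, and Ier3 had -0.00.

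The order of levels in TABS was Jun, Jund, Fosl2, Junb, Fosl1, Zfp36, Egr1 and then Fosb, Fos and Atf3, and neighbours that overlapped were Junb with Fosl1 and the last 3 genes. In HA the order began with Jund and Jun and then ran the same way down to Egr1, and there Fosl1 overlapped Zfp36. Of the last 3 genes, Fos overlapped Fosb and Atf3 in HA too, and Fosb lay above Atf3 there.

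Other genes of the pathway were taken from lists of its parts. The immediate early genes beyond the members numbered 34, of which 29 were tested, and 2 were higher, 4 lower and 23 did not pass, with a median log2 fold change of -0.04. The called shares were 6.90% higher and 13.8% lower, beside 4.49% and 2.9% of all tested genes. Of the 29, 7 were higher and 7 lower at an unadjusted limma p under 0.05, beside 1494 and 1222 of all 11280 tested genes. Ccn1, a matricellular protein gene, was at 61.6, 65.3, 70.0 and 73.1 FPKM in TABS, against 96.3, 90.9, 95.8 and 98.6 FPKM in HA. The groups were far apart, with a log2 fold change of -0.50 ± 0.06 (SE, limma adjusted p = 0.00169). Nfil3, a basic leucine zipper repressor, was at 22.9 ± 0.726 FPKM in TABS and 30.9 ± 2.09 FPKM in HA (SD, n = 4 each), with a log2 fold change of -0.42 (limma adjusted p = 0.00235).

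Trib1, a pseudokinase that acts with the ubiquitin ligase Cop1, was at 3.61 ± 0.246 FPKM in TABS and 2.72 ± 0.0755 FPKM in HA (SD, n = 4 each), a log2 fold change of 0.31 (limma adjusted p = 0.00813). The remaining calls were small: Ier5l at 0.22 (limma adjusted p = 0.0174), Plk2 at -0.20 (0.0293) and Rhob at -0.15 (0.0468). Ier5l lost its call without TABS 1, TABS 4 or HA 3 (limma adjusted p = 0.0521 to 0.0564). Plk2 lost it without any 1 library other than HA 1 (0.0565 to 0.0855) and Rhob without any 1 library (0.0686 to 0.126). Left out in turn, TABS 2, TABS 3, TABS 4, HA 2, HA 3 and HA 4 each brought the count of lower genes to 2.

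The MAP kinase phosphatases, which switch off the ERK, p38 and JNK kinases upstream of AP-1 and several of which are induced by them, gave 3 higher and 0 lower among 6 tested of 10, with a median log2 fold change of 0.29 beside 0.01 over all genes. Dusp5, a nuclear phosphatase of ERK, was at 4.88, 4.43, 4.22 and 4.74 FPKM in TABS, against 3.67, 3.47, 3.73 and 3.26 FPKM in HA, without overlap (log2 fold change 0.30, limma adjusted p = 0.0149). Dusp1, which acts on p38 and JNK, was at 25.7 ± 1.65 FPKM in TABS and 20.9 ± 1.78 FPKM in HA (SD, n = 4 each; 0.29, limma adjusted p = 0.0362). Dusp6, the cytoplasmic phosphatase of ERK, was at 16.4 ± 1.27 FPKM in TABS and 13.1 ± 1.19 FPKM in HA (0.31, limma adjusted p = 0.0378). Dusp5 kept its call without each library in turn. Dusp1 lost it without any 1 library other than TABS 2 and HA 3 (0.0599 to 0.0946), and Dusp6 without any 1 library other than TABS 1 and HA 3 (0.0677 to 0.101). The list had 1 call without TABS 3, TABS 4, HA 1 or HA 2. Dusp7, another phosphatase of ERK, had 0.50 and did not pass (limma adjusted p = 0.0513), with HA 4 at 8.54 FPKM inside the TABS range and the other HA libraries below it. It passed without HA 4, at 0.66 (limma adjusted p = 0.00152), after rescaling to TPM (0.0358) and with the filter of 5 FPKM (0.0441). At an unadjusted limma p under 0.05, 5 of the 6 were higher and 0 lower, beside 1494 higher and 1222 lower of all 11280 tested genes. With the adjusted p, 4.49% of all tested genes were higher and 2.9% lower.

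**Figure D3:**
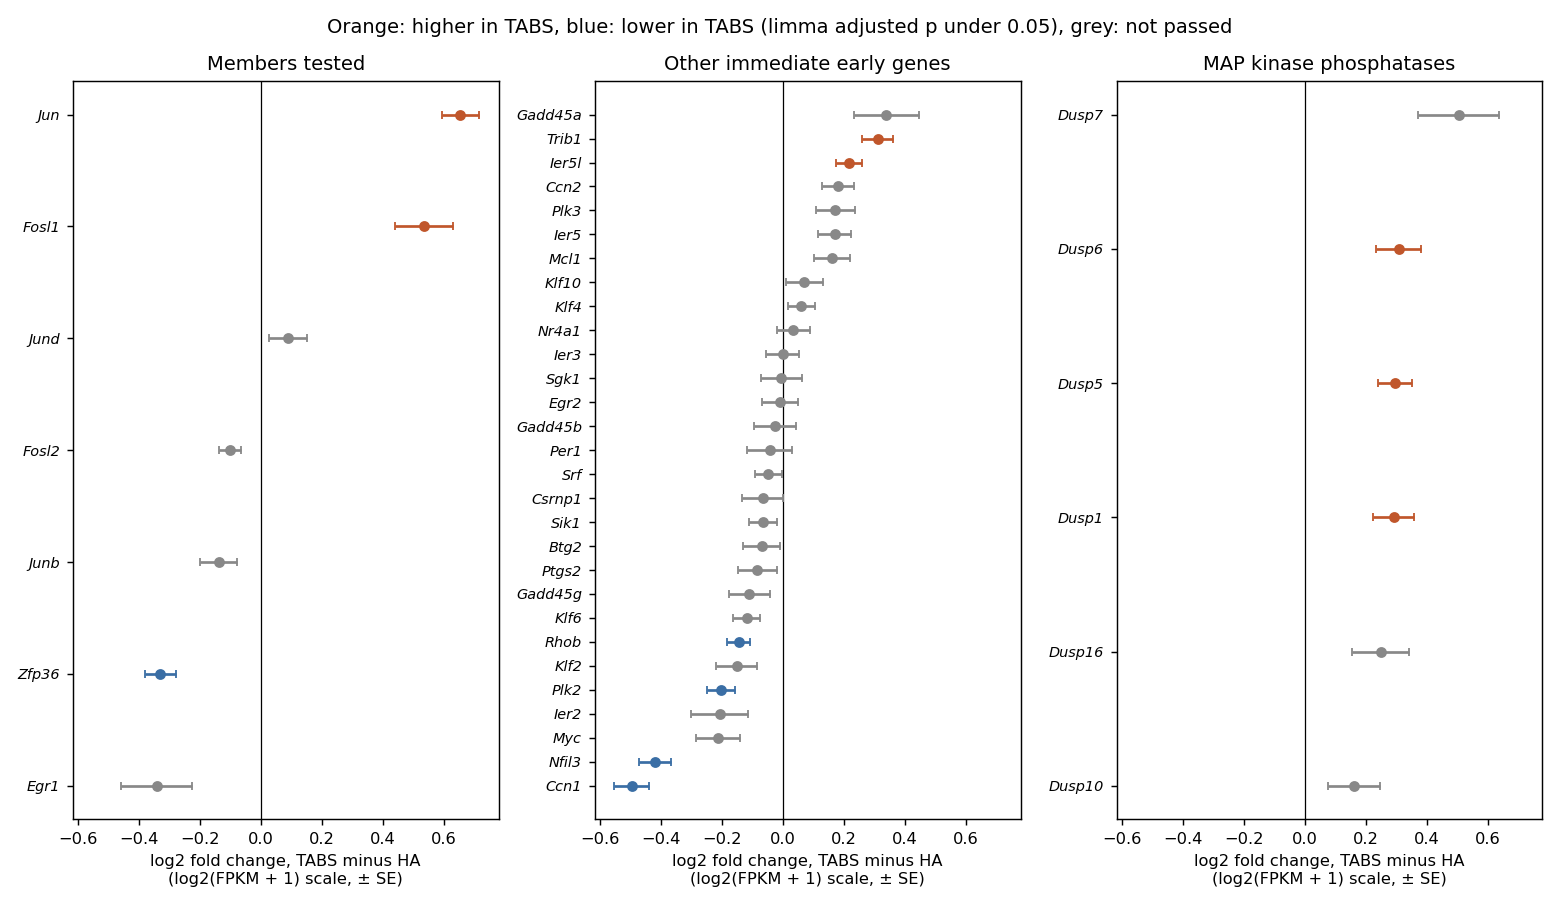
Log2 fold change (TABS minus HA, computed from log2(FPKM + 1)), with SE bars, for the 7 tested members (left), the 29 tested other immediate early genes (middle) and the 6 tested MAP kinase phosphatases (right). Orange genes were higher and blue genes lower in TABS (limma adjusted p under 0.05), and grey genes did not pass; Jun at 0.65 and Fosl1 at 0.53 lie above all other genes drawn.

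Of 24 kinases and factors upstream of the members, 22 were tested, 1 was higher and 0 were lower (2 higher and 0 lower at an unadjusted limma p under 0.05), with a median log2 fold change of 0.02. That gene was Elk3, a ternary complex factor that acts with the serum response factor, at 22.8 ± 0.806 FPKM in TABS and 19.4 ± 0.764 FPKM in HA (SD, n = 4 each; 0.23, limma adjusted p = 0.0166). Its call was lost without TABS 1 (0.0531) or TABS 3 (0.0503). Map2k7, the kinase that activates JNK, had 0.41 with a low value of 2.98 FPKM in HA 3 (limma adjusted p = 0.209), and 0.19 without that library (limma adjusted p = 0.103). In HA 3 the gene model Gm49320, which overlaps Map2k7 on the same strand in 1349 bases, was at 5.37 FPKM, against at most 0.487 FPKM in the other 7 libraries. Mrtfb, a coactivator of the serum response factor, had 0.09 (limma adjusted p = 0.191). None of the 4 ubiquitin ligase genes of Jun turnover passed the test, with log2 fold changes of 0.11 for Det1, -0.08 for Itch, -0.08 for Cop1 and -0.03 for Fbxw7. The adjusted limma p of these 4 genes ran from 0.182 to 0.783, and 1 had an unadjusted p under 0.05. For comparison with both lists, 4.49% of all tested genes were called higher and 2.9% lower. At an unadjusted limma p under 0.05 these were 1494 and 1222 of 11280.

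Other basic leucine zipper partners gave 0 limma calls among 8 tested of 13. At an unadjusted limma p under 0.05, 4 were higher and 0 lower, beside 1494 and 1222 of all 11280 tested genes. In 4 of the 8 (Maff, Atf7, Maf and Mafk) all TABS libraries lay above all HA libraries. The share over all tested genes was 10.8%. Maff was at 2.47 ± 0.233 FPKM in TABS and 1.91 ± 0.238 FPKM in HA (SD, n = 4 each; 0.25, limma adjusted p = 0.0701). Atf7 had 0.14 (limma adjusted p = 0.103) and Maf 0.15 (limma adjusted p = 0.105). After rescaling to TPM, Maff (0.0423) and Atf7 (0.0406) passed, so that the list had 2 calls higher. Atf2, the partner of Jun at its own promoter, was at 3.47 ± 0.164 FPKM in TABS and 3.52 ± 0.190 FPKM in HA, with a log2 fold change of -0.01 (limma adjusted p = 0.893).

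Genes known as AP-1 targets gave 1 higher and 1 lower among 17 tested of 23, with a median log2 fold change of -0.05. The called shares were 5.88% each way, beside 4.49% higher and 2.9% lower of all tested genes. Of the 17, 4 were higher and 4 lower at an unadjusted limma p under 0.05, beside 1494 and 1222 of all 11280 tested genes. Mmp13, the collagenase of osteoblasts and hypertrophic cartilage, was at 137, 137, 133 and 131 FPKM in TABS, against 165, 160, 165 and 184 FPKM in HA. It was lower in every TABS library (log2 fold change -0.32, limma adjusted p = 0.00674). Spp1, which encodes osteopontin, had 0.45 (limma adjusted p = 0.0207), and lost the call without TABS 1, TABS 2 or HA 2 (0.0570 to 0.0633). After rescaling to TPM, 4 genes of this list were higher in place of 1.

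Jun and Fosl1 kept their calls under all 20 alternative settings of the fit. The log2 fold change ran from 0.59 to 0.70 for Jun and from 0.46 to 0.62 for Fosl1, with limma adjusted p of 0.000391 to 0.0222 for Jun and 0.00586 to 0.0427 for Fosl1. Jund and Junb did not pass under any of them.

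**Figure D4:**
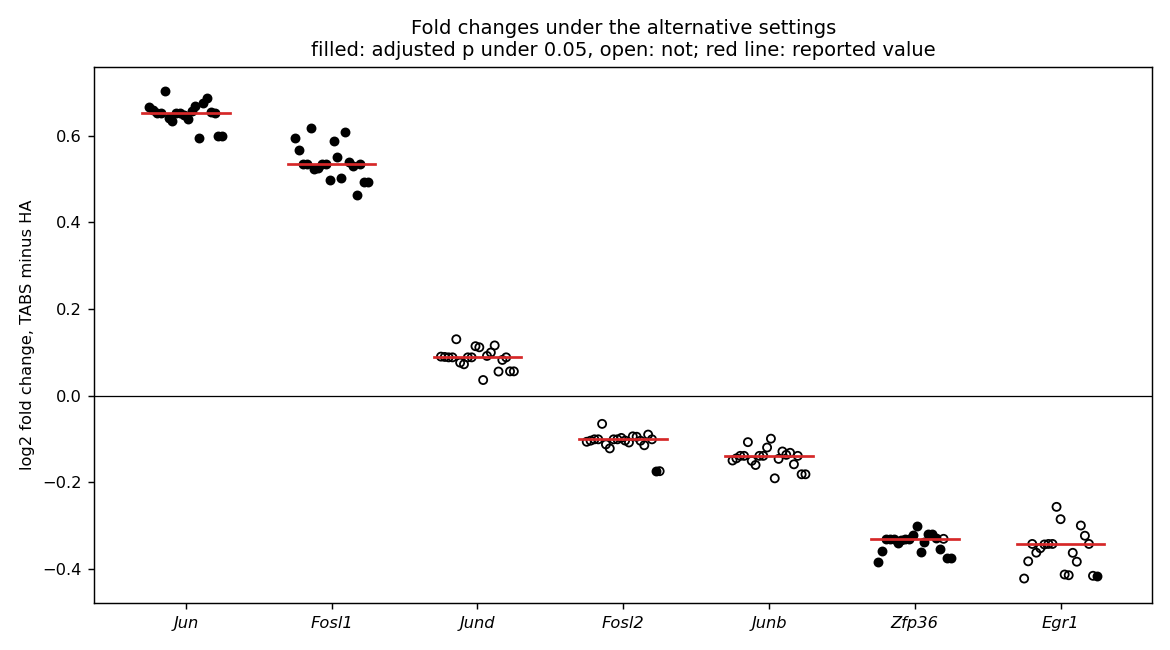
Log2 fold change, TABS minus HA, of the 7 tested members under 20 alternative settings of the fit (19 for Egr1); filled points passed the test (limma adjusted p under 0.05), open points did not, and the red line is the value reported. Jun (0.59 to 0.70) and Fosl1 (0.46 to 0.62) passed throughout, Zfp36 in all but 1 setting, and Fosl2 and Egr1 in 1 setting each.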

How the data were processed

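FPKM values per gene and library were deposited by the authors. Per the submitters' processing notes, fastp, STAR, DESeq2 and the build GRCm38 were used, with no word on roles, versions, strand setting or annotation. Columns were matched to samples by library names, in which the letter H stands for TABS and L for HA, and no gene checks that assignment. Symbols, exons and UTRs came from GENCODE M21 (55154 of 55335 identifiers found).

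Genes with at least 1 FPKM in at least 4 of 8 libraries were tested on log2(FPKM + 1) by limma 3.58.1 (R 4.3.3). Its moderated variances had an intensity trend, and p was two-sided, with Benjamini-Hochberg adjustment over all tested genes. This scale understates changes of low genes. Of low values in single-exon genes, 35.4% to 40.8% were whole multiples of a step within 0.02 steps, so reads were not recovered, no count test was run and the depth is unknown. The fit was tested on simulated data.

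Members and lists were chosen with earlier results of these data known. All members are named, and from each of the other lists up to 3 tested genes by smallest adjusted p. A gene taken by this rule is not reported here. Ier5l, Plk2, Rhob, Fbxw7, Mafk, Atf2 and Dusp7 were named after their values were seen, and so were Col1a1, Alpl and the overlapping genes. The motifs TGACGT and TATTTAT were added after the sequences were seen. Composition, lists and motifs are descriptions with no test. Alternatives changed the pseudocount, filter, scaling, variance model, libraries, replicate block, and GC content and length.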

Additional observations from a re-analysis of the deposited data

Results flagged for a closer look

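In 160 groups of 4 libraries examined (levels of named genes and composition measures, by group), 15 had 1 library far from the other 3, with a gap that took more of the range than Dixon's critical value allows. Chance flags about 1 in 20 groups. Many of the 160 are not independent, since shares and sums are built from the same genes.

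Several concern the library HA 1. Fosb was at 1.25 FPKM there, against 0.719 to 0.763 FPKM in the other HA libraries, which also set Fosb at 4.72% of the Fos family (2.94% to 3.13% in the others) and at 1.06% of the 7 subunits (0.584% to 0.643%). The Fos family sum in HA 1 was 26.5 FPKM, against at most 24.4 FPKM in the others. The Jun to Junb ratio there was 2.59, against 3.14 to 3.19, and Ier3 was at 22.2 FPKM, against 19.4 to 19.5 FPKM.

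In TABS 3 the Jun family sum was 124 FPKM, against 116 FPKM in each of the other TABS libraries, and the sum of the 7 subunits was 151 FPKM, against 142 to 143 FPKM. Fosl1 and Fosl2 made up 93.1% of the Fos family there, against 95.0% to 95.4% in the others. In TABS 2 the Fos family sum was 25.5 FPKM, against 27.1 to 27.5 FPKM. In TABS 1, Det1 was at 3.07 FPKM, against 3.30 to 3.34 FPKM, and Zfp36l1 at 23.9 FPKM, against 25.4 to 25.6 FPKM. In HA 4, Nab2 was at 27.1 FPKM, against 31.2 to 31.6 FPKM, and Dusp7 at 8.54 FPKM, against 5.10 to 5.47 FPKM. In HA 3, Gm49320 was at 5.37 FPKM, against at most 0.487 FPKM in the other HA libraries.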

How the results depend on the processing

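Under 20 alternatives the members higher in TABS stayed 2. Members lower in TABS numbered 1 as reported, 0 with the replicate block, 2 with the GC and length correction and 2 with both. With the replicate block Zfp36 had an adjusted limma p of 0.0542 (0.00100 to 0.0542 over its alternatives). With the correction Fosl2 passed (0.0107; 0.0107 to 0.327 over its alternatives), and with correction and block Egr1 did (0.0279; 0.0279 to 0.271). Egr1 gave no value under the filter of 5 FPKM. Over all genes the 506 higher became 915 after rescaling to TPM, 136 with the replicate block, 175 with correction and block, and 247 to 429 without 1 library. The 327 lower became 195 with no filter, 94 with the replicate block, 162 with correction and block, and 168 to 289 without 1 library. Between TABS and HA, the difference in the Jun share of its family was 9.51 to 11.7 points without 1 library, that of Fosl1 9.47 to 11.7 points, and that of the family ratio 0.468 to 0.668. Replicate numbers did not pair the libraries: deviations of same-numbered libraries correlated at 0.10, 0.05, -0.10 and -0.06. Of the other calls, Trib1, Mmp13, Dusp5, Elk3, Ier5l, Plk2, Rhob, Zfp36l2, Spp1, Dusp1, Col1a1, Lyz2 and Col2a1 were also lost with the block, and Jun, Fosl1, Ccn1, Nfil3 and Dusp6 were kept. The sign turned for genes near 0: Ptgs2 had 0.023 with the correction, with and without the block, and Ier3 had 0.039 with TPM, 0.0020 with the correction with and without the block, and -0.023 to 0.045 without 1 library, above 0 without TABS 1, TABS 4 or HA 1. Atf2 had 0.020 with TPM, 0.087 with the correction with and without the block, and -0.038 to 0.0066 without 1 library. Fbxw7 had -0.062 to 0.0032 without 1 library, Fosb -0.11 to 0.015 and Atf3 -0.12 to 0.024. With the replicate block Ccl2 passed (0.0373), and genes with TGACTCA gave 8 higher and 3 lower. After rescaling to TPM these gave 51 higher and 11 lower. The causes were not tested.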
